A study of Mus musculus with 14 samples.

Results

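The mast cell genes followed in epididymal white adipose tissue (eWAT) were Cpa3, Cma1, Mcpt4, Tpsb2, Hdc, Kit, Fcer1a and Ms4a2. They were picked by gene symbol as textbook markers of the cell type, and each had 1 row among the 23282 genes of the table. Counts per gene came from QuantSeq, a library method that reads the 3′ end of polyadenylated RNA, in 14 libraries of male, wild-type C57BL/6J mice. The control group of batch 1 held 4 libraries (replicates 1 to 4) and the Western diet (WD) group held 5 (replicates 1 to 5), all in batch 1. A further 5 control libraries (replicates 5 to 9) formed batch 2. Mice bought at 4 weeks of age were fed standard chow in both control groups or the D12079B diet in the WD group, for 20 weeks. The labels give the batch as a number and do not say what it marks. All WD libraries are in batch 1, so in a comparison with the batch 2 controls the diet and the batch cannot be told apart. The tissue was the whole fat pad rather than sorted cells. A lower level of a mast cell gene in such tissue can come from fewer mast cells or from less RNA per cell, and these cannot be told apart here.

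Mast cells are long-lived resident cells of connective tissue that lie along vessels and nerves and store their products in granules. The granules of the connective tissue type hold carboxypeptidase A3, chymases and tryptase bound to heparin, together with histamine. Survival of the cells depends on KIT, the receptor of stem cell factor, and antigen releases the granules by cross-linking IgE on the high-affinity receptor Fc epsilon RI. In visceral fat they sit among macrophages, adipocytes and stromal cells.

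No mast cell gene passed the threshold, a false discovery rate (FDR) of 0.05 in edgeR's quasi-likelihood test, in any of the 3 comparisons of groups. The granule protease genes had their highest counts in WD libraries, except Mcpt4, whose highest counts lay in the batch 2 controls. Hdc and Kit had theirs in 1 batch 1 control library that also carried epididymis RNA and had the lowest level of adipocyte markers. Fcer1a and Ms4a2, which encode chains of the IgE receptor Fc epsilon RI, were at 0 in most libraries. The signalling chain below that receptor is also used by other leukocytes. Of its tested genes, 6 of 12 were higher in WD than in the batch 2 controls, where 3.93% of all genes were. Against the batch 1 controls 0 of 11 were called, as were 0 of all 12157 genes tested. Macrophage markers were also higher in WD than in the batch 2 controls and, like all other genes, not called against the batch 1 controls.

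Promoter sequences are shown for the 3 protease genes that had one in the RefSeq table and for Hdc, because the proteases and Hdc had different patterns over the libraries. The table (GRCm38.p6) held the promoter of 7 of the 8 genes, 250 bases before and 50 after the gene's start, and not that of Tpsb2. Each sequence is written 5′ to 3′ on the gene's strand, and capitals mark GATAA or its reverse complement TTATC, letters contained in the site of GATA factors such as GATA2.
Cpa3 promoter, chr3:20242132-20242431, minus strand: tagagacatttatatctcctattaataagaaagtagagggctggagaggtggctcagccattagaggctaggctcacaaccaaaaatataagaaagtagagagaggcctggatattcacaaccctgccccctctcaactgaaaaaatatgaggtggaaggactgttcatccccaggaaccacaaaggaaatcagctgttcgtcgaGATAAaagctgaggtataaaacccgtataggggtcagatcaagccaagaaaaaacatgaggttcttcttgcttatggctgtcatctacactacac
Cma1 promoter, chr14:55944626-55944925, minus strand: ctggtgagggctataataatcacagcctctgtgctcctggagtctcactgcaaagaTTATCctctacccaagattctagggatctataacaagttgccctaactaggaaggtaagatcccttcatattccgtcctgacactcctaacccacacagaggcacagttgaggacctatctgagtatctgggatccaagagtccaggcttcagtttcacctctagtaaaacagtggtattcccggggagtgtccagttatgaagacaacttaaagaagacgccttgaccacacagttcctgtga
Mcpt4 promoter, chr14:56062261-56062560, minus strand: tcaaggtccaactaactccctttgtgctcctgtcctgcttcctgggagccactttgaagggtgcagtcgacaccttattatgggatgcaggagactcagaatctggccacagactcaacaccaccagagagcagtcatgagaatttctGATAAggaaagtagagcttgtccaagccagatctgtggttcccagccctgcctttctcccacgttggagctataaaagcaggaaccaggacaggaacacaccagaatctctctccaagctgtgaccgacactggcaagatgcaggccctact
Hdc promoter, chr2:126618629-126618928, minus strand: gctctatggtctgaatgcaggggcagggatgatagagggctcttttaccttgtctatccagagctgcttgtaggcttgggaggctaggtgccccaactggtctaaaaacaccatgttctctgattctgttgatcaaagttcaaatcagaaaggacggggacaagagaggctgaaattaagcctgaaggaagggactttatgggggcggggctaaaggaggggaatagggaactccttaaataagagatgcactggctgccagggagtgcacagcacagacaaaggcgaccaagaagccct
GATAA on either strand stood once in each of the Cpa3, Cma1, Mcpt4 and Fcer1a windows and 3 times in that of Ms4a2. It was not among the letters of the Kit and Hdc windows. That made 5 of 7 genes, beside 25.4% of the 32851 mouse promoters of the same length. The marked letters began 45 bases before the start of Cpa3, 102 before that of Mcpt4 and 194 before that of Cma1. Binding of a factor was not measured.

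The 8 genes lie on 7 chromosomes of mm10. Cma1 (chr14:55941451-55944661) and Mcpt4 (chr14:56059744-56062310) are 115083 bases apart on the minus strand, in the chymase locus. Tpsb2 (chr17:25366333-25368092) lies 20771 bases from its paralog Tpsab1 in the tryptase locus. The others were Cpa3 (chr3:20215616-20242181), Hdc (chr2:126593660-126618678), Kit (chr5:75574987-75656721), Fcer1a (chr1:173221271-173227229) and Ms4a2 (chr19:11615521-11623719). Reads with more than 1 alignment were counted, so sequence shared with relatives bears on the values. Of all stretches of 75 bases in the transcripts, the read length, 17 of 1016 in Cma1 were shared with another gene, as were 26 of 1034 in Mcpt4 and 38 of 3103 in Ms4a2. No stretch of Cpa3, Tpsb2, Hdc, Kit or Fcer1a was shared. Tpsab1, the other tryptase gene, which the table lists as a non-coding RNA, had no count in any of the 14 libraries.

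Total counts ran from 10278970 to 13712254 per library. The smallest level that can be told from 0 was taken as 3 counts. These stood for 0.219 to 0.292 counts per 1000000 counts of the library (CPM), before scaling by TMM factors. Levels in CPM given for genes and sums of genes carry those factors. That limit covers counting error only, since the reads carried no molecular identifiers. A pair of batch 1 control libraries stood apart. Control replicate 4 had a count for 7999 genes and for none of the 8 mast cell genes, and the other libraries for 10903 to 13780 genes and 2 to 7 of the 8. Control replicate 1 held 33110 CPM of 7 epididymis genes, which reached at most 13.3 CPM elsewhere. It held 4500 CPM of 5 adipocyte markers, beside 20827.5 to 45111.4 CPM in the other libraries. Its sum of 6 macrophage markers, 129 CPM, was also the lowest of the 14 libraries. Mcpt8 and Prss34, proteases that mark basophils, were at 0 in all 14 libraries.

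Against the batch 1 controls, 5 of the 8 mast cell genes passed edgeR's filter on low counts and 0 were called, as were 0% of the 12157 genes tested. At an unadjusted p under 0.05 edgeR had 0 of the 5 and 628 of all genes, and DESeq2 called 0 of the 5 and 114 of all genes (0.955%). Against the batch 2 controls 0 of 5 were called, beside 6.4% of 12070 genes, with 2 of the 5 (Cpa3 and Tpsb2) and 2140 of all genes at an unadjusted p under 0.05 and 0 of the 5 called by DESeq2, which called 10.4% of all genes. Between the control groups 0 of 6 were called, beside 0% of 12106 genes, with 0 of the 6 and 895 of all genes at an unadjusted p under 0.05, and DESeq2 called 0 of the 6 and 0.937% of all genes. For no mast cell gene did all WD libraries lie above all controls of a batch. Over all genes tested this held for 3.03% against the batch 1 and 4.99% against the batch 2 controls. The shares of all genes with only some libraries of a group above the other group were not computed.

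**Figure D1:**
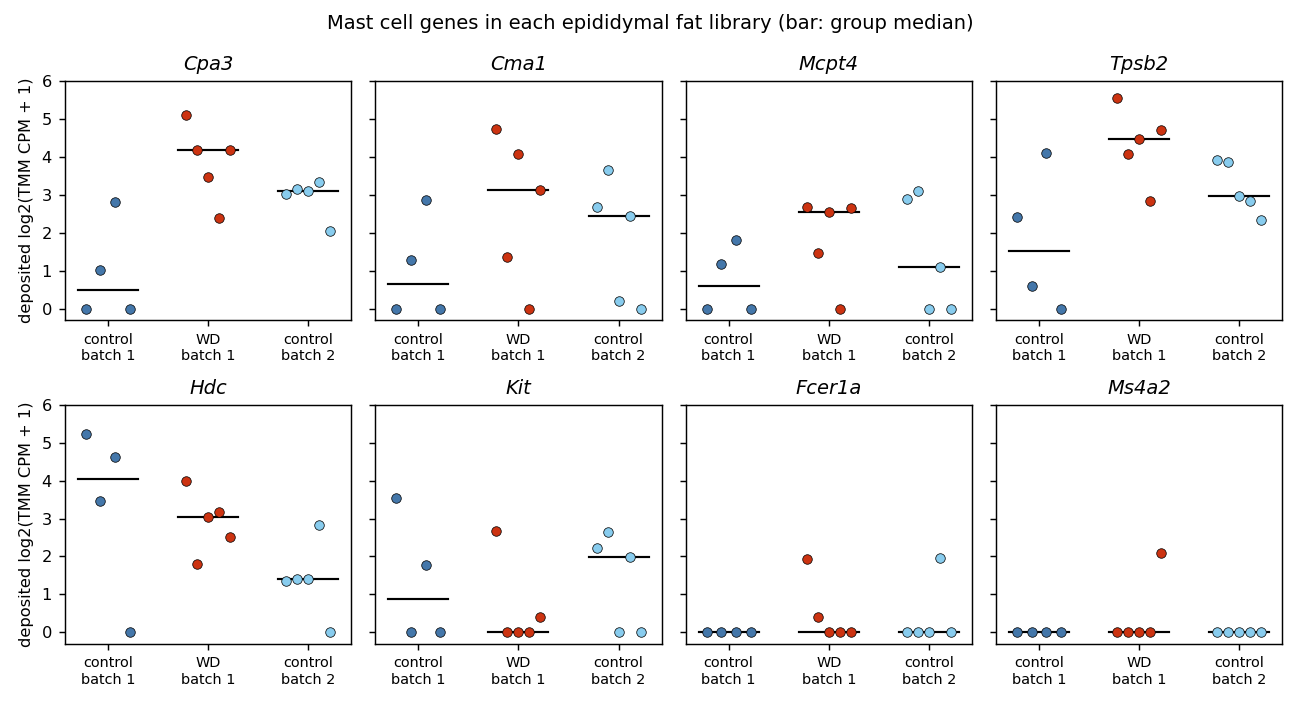
Deposited log2 values of the 8 mast cell genes (vertical axes, log2 of TMM-normalized CPM plus 1), 1 point per library, by group, with a bar at the group's median. In WD, Cpa3 ran from 2.39 to 5.11 and overlapped both control groups, Hdc was highest in a batch 1 control at 5.22, and Fcer1a and Ms4a2 were at 0 in most libraries.

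Cpa3 encodes carboxypeptidase A3, a granule enzyme that trims amino acids from the C-terminal end of peptides and is stored with the chymases. Its counts in the batch 1 controls were 0, 12, 73 and 0. In WD they were 476, 163, 139, 53 and 203, and in the batch 2 controls 99, 82, 101, 118 and 31. Every WD library but replicate 4 lay above all controls of either batch, and the groups overlapped through that library. Mean CPM was 1.77 ± 2.91 (SD, n = 4) in the batch 1 controls, 16.5 ± 11 (SD, n = 5) in WD and 6.90 ± 2.25 (SD, n = 5) in the batch 2 controls. Against the batch 1 controls the log2 fold change was 3.21 (SE 1.58), with an FDR of 1.00 in edgeR's quasi-likelihood test. Against the batch 2 controls it was 1.24 (SE 0.54), with an FDR of 0.23 by edgeR. The size of the Cpa3 difference from the batch 1 controls depended on single control libraries. Without control replicates 1 and 4, both at 0, it was 2.22 (SE 1.04, FDR 0.54 by edgeR), and without control replicate 3, the highest, it was 5.55 (SE 1.84, FDR 0.50). Against the batch 2 controls it was 0.81 without WD replicate 1 (FDR 0.60 by edgeR).

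Tpsb2 encodes the tryptase of connective tissue mast cells, a protease that is active as a tetramer held together by heparin. Its counts in the batch 1 controls were 42, 6, 195 and 0. In WD they were 653, 151, 292, 77 and 302, and in the batch 2 controls 196, 142, 91, 81 and 40. As with Cpa3, WD replicate 1 was highest and WD replicate 4 lowest of its group. On the CPM scale, 3 of 5 WD libraries lay above every batch 1 control and 4 of 5 above every batch 2 control, and the groups overlapped. Mean CPM was 5.32 ± 7.57 (SD, n = 4) in the batch 1 controls, 23 ± 14.8 (SD, n = 5) in WD and 8.87 ± 4.52 (SD, n = 5) in the batch 2 controls. The log2 fold change of WD was 2.11 (SE 1.31) against the batch 1 controls, with an FDR of 1.00 by edgeR. Against the batch 2 controls it was 1.36 (SE 0.52), with an unadjusted p of 0.018 and an FDR of 0.16 by edgeR. Leaving out WD replicate 4 raised this to 1.60, with an FDR of 0.044 by edgeR, the only setting of those run in which a mast cell gene was called. Leaving out WD replicate 1 lowered it to 0.94 (FDR 0.45), and with all 14 libraries in 1 fit the FDR was 0.93. Against the batch 1 controls the value was 3.74 without control replicate 3 (FDR 0.59 by edgeR) and 1.46 without control replicates 1 and 4. Tpsb2 is also on the study's list of genes raised by WD, which was chosen on these samples and is not independent evidence of a direction.

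Cma1 and Mcpt4 encode serine proteases of the chymase locus, stored in mast cell granules, and the Mcpt4 product is known for its chymotrypsin-like cleavage of matrix proteins and peptides. Cma1 counts were 0, 17, 76 and 0 in the batch 1 controls, 363, 15, 216, 0 and 93 in WD, and 76, 121, 2, 58 and 0 in the batch 2 controls. Mcpt4 counts were 0, 15, 30 and 0 in the batch 1 controls, 77, 17, 67, 0 and 63 in WD, and 89, 78, 0, 15 and 0 in the batch 2 controls. Both chymase genes were at 0 in WD replicate 4, in control replicates 1 and 4, and in control replicate 9. Both were counted together in 9 of the 14 libraries, and in the remaining library Cma1 had 2 counts and Mcpt4 none. WD and both control groups overlapped for each gene.

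Mean CPM of Cma1 was 1.94 ± 3.01 (SD, n = 4) in the batch 1 controls, 10.2 ± 10.7 (SD, n = 5) in WD and 4.30 ± 4.72 (SD, n = 5) in the batch 2 controls. For Mcpt4 the corresponding means were 0.938 ± 1.2 (SD, n = 4), 3.49 ± 2.45 (SD, n = 5) and 2.97 ± 3.60 (SD, n = 5). The log2 fold changes against the batch 1 controls were 2.38 (SE 1.97) for Cma1 and 1.88 (SE 2.03) for Mcpt4. Without control replicate 3 they were 4.36 and 3.00, and without control replicates 1 and 4 they were 1.39 and 0.89. Against the batch 2 controls they were 1.23 (SE 1.27) and 0.21 (SE 1.47), and the last changed sign when single libraries were left out. The Cma1 value ran from 0.54 without WD replicate 1 to 2.01 without control replicate 6. None of these differences was called, with edgeR FDRs of 1.00 against the batch 1 controls and of 0.74 and 0.98 against the batch 2 controls. Unadjusted p by edgeR was 0.25 for Cma1 and 0.37 for Mcpt4 against the batch 1 controls. Against the batch 2 controls it was 0.35 and 0.89.

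**Figure D2:**
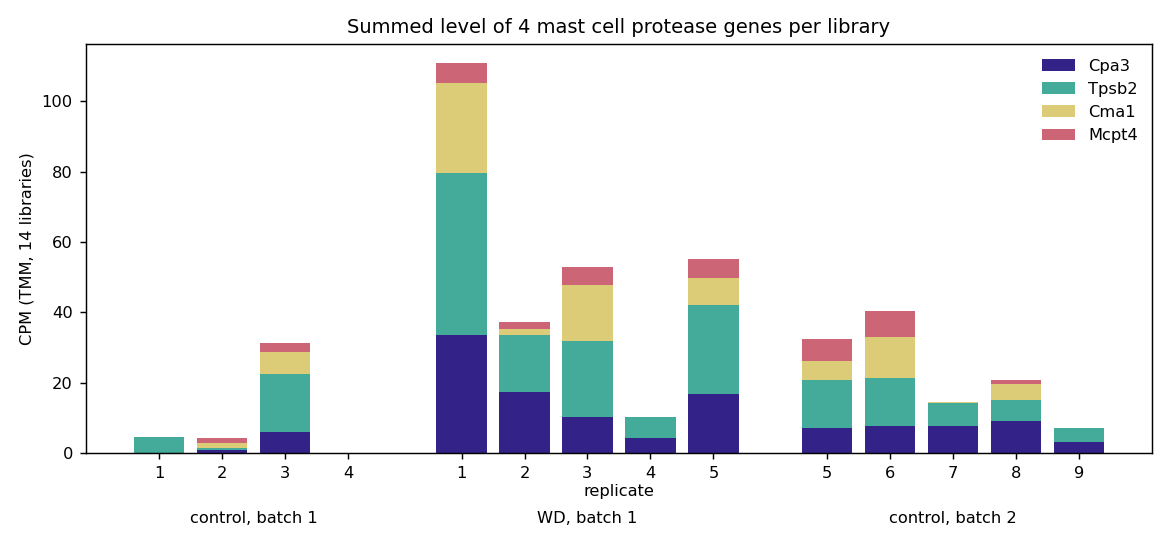
Summed CPM of Cpa3, Tpsb2, Cma1 and Mcpt4 (vertical axis) in each library (horizontal axis, replicate numbers by group), with 1 colour per gene. The sum ran from 0 to 31.2 CPM in the batch 1 controls, from 10.3 to 111 in WD and from 7.09 to 40.3 in the batch 2 controls.

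The 4 protease genes varied together from library to library more than Hdc or Kit varied with them. Summed over the 4, the batch 1 controls held 4.54, 4.17, 31.2 and 0 CPM. The WD libraries held 111, 37.1, 52.8, 10.3 and 55.1 CPM, and the batch 2 controls 32.5, 40.3, 14.5, 20.8 and 7.09 CPM. WD replicates other than 4 lay above all batch 1 controls, whereas WD replicate 2 lay below the highest batch 2 control. Pearson's r of log2(CPM + 1) over the 14 libraries was 0.93 for Cma1 with Mcpt4 and 0.87 for Cpa3 with Tpsb2, and at least 0.65 for every pair of the 4. These values describe libraries that share a group structure and a range of detected genes, and they carry no test. The number of genes with a count per library moved with the same proteases, with r from 0.48 for Mcpt4 to 0.77 for Tpsb2. Its part in their differences was not tested.

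Between the control groups, which received the same diet, none of the protease genes was called by edgeR. Log2 fold changes of the batch 2 over the batch 1 controls were 1.95 (SE 1.61) for Cpa3, 1.14 (SE 2.01) for Cma1, 1.65 (SE 2.15) for Mcpt4 and 0.73 (SE 1.35) for Tpsb2. This comparison shares the batch 1 controls with the first, and WD is shared by the others. Without control replicates 1 and 4 these values were 0.97, 0.16, 0.67 and 0.10, and without control replicate 3 they were 4.31, 3.15, 2.79 and 2.43, with none called. For Cpa3, 4 of 5 batch 2 controls lay above every batch 1 control. All 5 did for 4.13% of the genes tested, and the share with 4 of 5, which is the like measure, was not computed.

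**Figure D3:**
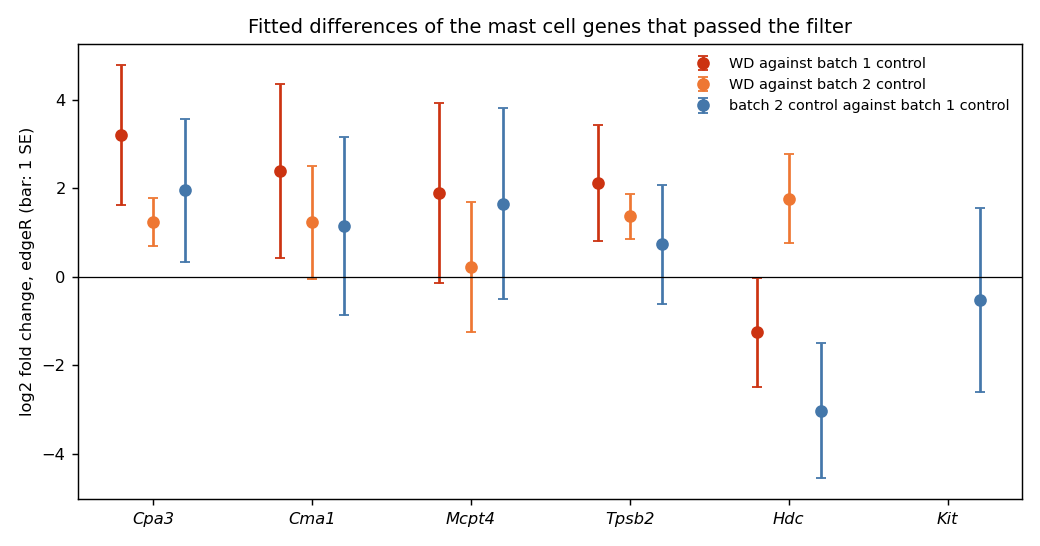
Log2 fold changes fitted by edgeR (vertical axis, bars of 1 SE) of the mast cell genes that passed the filter on low counts, in each of the 3 comparisons. Cpa3, Cma1, Mcpt4 and Tpsb2 lay above 0 in all 3, Hdc at -1.26, 1.76 and -3.03, and none passed the FDR threshold.

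Hdc encodes histidine decarboxylase, the enzyme that makes histamine, which mast cells and basophils store and which myeloid cells can also form. Its counts in the batch 1 controls were 348, 118, 285 and 0. In WD they were 210, 24, 99, 100 and 56, and in the batch 2 controls 22, 17, 22, 80 and 0. The 3 batch 1 controls with a count overlapped with WD and lay above all batch 2 controls. Mean CPM was 17.8 ± 16.4 (SD, n = 4) in the batch 1 controls, 7.46 ± 4.64 (SD, n = 5) in WD and 2.19 ± 2.30 (SD, n = 5) in the batch 2 controls.

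The sign of the fitted WD difference in Hdc depended on which controls were used, and neither difference was called. The log2 fold change was -1.26 (SE 1.24) against the batch 1 controls, with an FDR of 1.00 by edgeR. It was 1.76 (SE 1.01) against the batch 2 controls, with an FDR of 0.42. The value against the batch 1 controls was -0.59 without control replicate 1, the library with epididymis RNA. Without control replicate 4 it was -1.69. In limma-voom, with TMM factors as in edgeR, the value against the batch 1 controls was 0.92, and the median of all genes was itself 0.42. The log2 fold change of the batch 2 over the batch 1 controls was -3.03 (SE 1.53), with an FDR of 0.72 by edgeR. Hdc was the mast cell gene with the largest fitted difference between the control groups, and the batch 1 controls themselves ran from 0 to 37.6 CPM.

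Hdc did not follow the protease genes. Its r with each of them over the 14 libraries was between 0.04 and 0.30. Control replicate 1, with the highest Hdc, had no count of Cpa3, Cma1 or Mcpt4 and 42 of Tpsb2. It was also the library with epididymis RNA and the lowest level of adipocyte markers. The part of either in the Hdc counts was not tested. Summed neutrophil markers ran from 125 to 304 CPM in the batch 1 controls, from 54.0 to 156 in WD and from 38.6 to 137 in the batch 2 controls, and r of Hdc with them was 0.35.

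**Figure D4:**
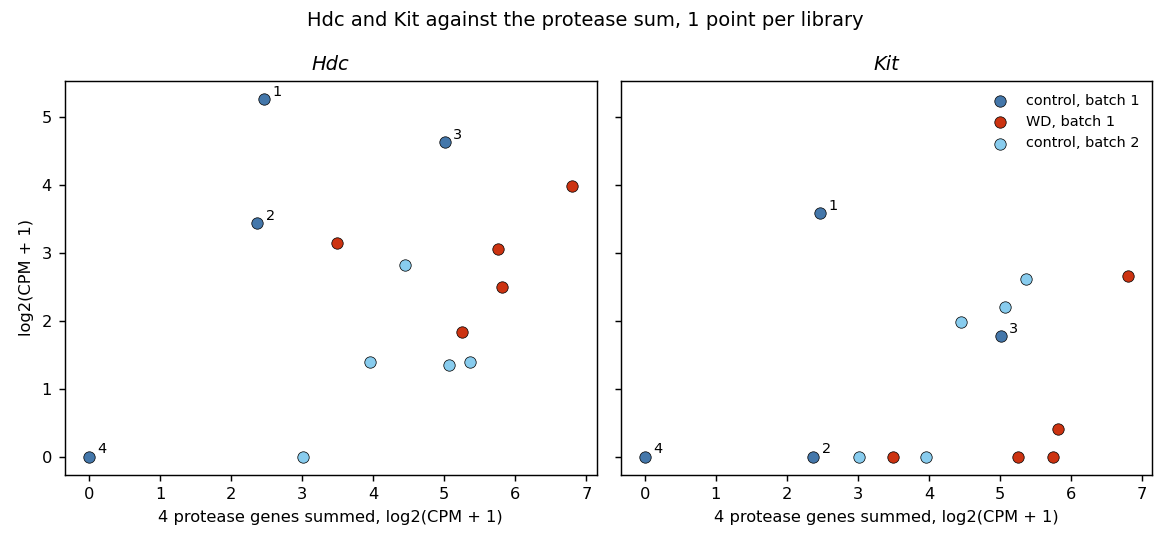
Hdc (left) and Kit (right) in log2(CPM + 1) against the summed level of the 4 protease genes in log2(CPM + 1), 1 point per library, coloured by group, with numbers for the batch 1 control replicates. Control replicate 1 had the highest Hdc (37.6 CPM) and Kit (11 CPM) with a protease sum of 4.54 CPM, and control replicate 4 was at 0 on both axes.

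Kit encodes the receptor for stem cell factor, which mast cells keep through life while most other blood cells lose it. Its counts were 102, 0, 29 and 0 in the batch 1 controls, 76, 0, 0, 0 and 4 in WD, and 51, 54, 0, 39 and 0 in the batch 2 controls. Kit was thus counted in 7 of the 14 libraries, with no separation of the groups. Mean CPM was 3.36 ± 5.23 (SD, n = 4), 1.14 ± 2.37 (SD, n = 5) and 2.35 ± 2.28 (SD, n = 5) in that order. Kit did not pass the filter in either comparison with WD. Between the batch 2 and batch 1 controls the log2 fold change was -0.53 (SE 2.08), with an FDR of 0.99 by edgeR, and it was 1.54 without control replicate 1, the library with epididymis RNA. WD replicates 2 and 3 held 163 and 139 counts of Cpa3 but no count of Kit. The libraries without a Kit count had totals within the range of the others. They had a count for 7999 to 13530 genes, and the libraries with Kit for 12294 to 13780. Over the 14 libraries r of Kit with the number of genes with a count was 0.45. The cause of the Kit zeros was not tested.

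Kitl, which encodes stem cell factor, was counted in every library. Its mean CPM was 60.3 ± 23.7 (SD, n = 4) in the batch 1 controls, 44.3 ± 10.6 (SD, n = 5) in WD and 33.2 ± 11.4 (SD, n = 5) in the batch 2 controls. The log2 fold change of WD was -0.45 (SE 0.38) against the first and 0.40 (SE 0.29) against the second, and edgeR called neither. Of the list for the KIT axis and survival, with 5 genes tested, 1 was called higher in WD than in the batch 2 controls, beside 3.93% of all genes. It was Bcl2a1b (log2 fold change 2.75, FDR 0.032 by edgeR), a survival gene of the BCL2 family used by many leukocytes. It was no longer called when any 1 of WD replicates 1, 3 and 5 or control replicates 5, 7 and 9 was left out.

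Fc epsilon RI consists of an alpha chain that binds IgE (Fcer1a), a beta chain that amplifies the signal (Ms4a2) and a gamma chain (Fcer1g) shared with Fc receptors of other cells. Fcer1a was counted in 3 of 14 libraries, with 40 counts in WD replicate 1, 3 in WD replicate 2 and 38 in control replicate 8. Ms4a2 was counted in 1 library, with 39 counts in WD replicate 5. No library had a count of both chains, and neither gene passed the filter in any comparison. The libraries with Fcer1a or Ms4a2 counts all had counts of the 4 protease genes. The alpha and beta chain genes, which define mast cells and basophils, were thus at 0 in most libraries that held protease counts.

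Fcer1g was counted in every library. In the batch 1 controls it stood at 36, 69.1, 42.4 and 130 CPM. In WD it stood at 151, 132, 130, 132 and 93.7 CPM, and in the batch 2 controls at 38.1, 21.9, 19.2, 60.2 and 26.7 CPM. Every WD library lay above every batch 2 control, as for 4.99% of all genes tested. Control replicate 4, at 130 CPM without a count of any of the 8 mast cell genes, lay within the WD range. That library had a count for 7999 genes, the fewest of the 14 libraries. Fcer1g rose in WD against the batch 2 controls (log2 fold change 1.93, SE 0.29), with an FDR of 0.00066 by edgeR. Against the batch 1 controls the value was 0.88 (SE 0.39), with an FDR of 0.93. Over the 14 libraries its r was 0.93 with the summed level of 6 macrophage markers and 0.08 with that of the 4 mast cell proteases.

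The signalling chain below Fc epsilon RI runs from the kinases LYN and SYK through the adaptors LAT and LAT2 to VAV1, with the phosphatase SHIP1 (Inpp5d) as a brake, and it serves many receptors of myeloid cells. Of the 13 genes on this list, 12 passed the filter and 6 were called higher in WD than in the batch 2 controls, where 3.93% of all genes were called higher. The median log2 fold change of the 12 was 1.85, beside -0.0034 for all genes tested. Besides Fcer1g, the genes that rose were Lyn (1.33, FDR 0.021), Syk (1.95, FDR 0.018), Lat2 (3.21, FDR 0.0045), Vav1 (2.81, FDR 0.037) and Inpp5d (2.49, FDR 0.038), with the FDRs from edgeR. Fcer1g, Lyn, Lat2 and Vav1 are on the study's list as well, as are C5ar1, Adgre1, Cd68, Itgax and Lyz2 among the genes of other lists, so that list is no independent evidence for them. Leaving out single libraries gave 3 to 6 calls, with 3 without WD replicate 3, control replicate 5 or control replicate 9, and Fcer1g and Lat2 were called in each of these 10 fits. With all 14 libraries in 1 fit, 1 gene of the list was called, Fcer1g. Against the batch 1 controls 0 of 11 were called, as were 0 of all 12157 genes tested. The median was 0.74 beside 0.03 for all genes tested. Without control replicates 1 and 4, 1 was called (Lat2, FDR 0.002 by edgeR), beside 108 of all 13576 genes.

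The level of Lat2 separated WD from the controls. Its CPM was 0, 7.92, 10.7 and 56.3 in the batch 1 controls, 80.0, 115, 71.1, 95.3 and 79.7 in WD, and 14.8, 0, 11.8, 12.8 and 7.69 in the batch 2 controls. All WD libraries exceeded all controls. Over all genes tested this held for 3.03% against the batch 1 and 4.99% against the batch 2 controls. The share against both was not computed. As with Fcer1g, the batch 1 control nearest to WD was replicate 4, which had no count of a mast cell gene. That replicate was also the library with the fewest genes, and the cause of its zeros was not tested. The log2 fold change against the batch 1 controls was 2.24 (SE 1.00), with an FDR of 0.95 by edgeR.

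Among 7 genes for lipid mediators, 6 were tested and 2 were called higher in WD than in the batch 2 controls, beside 3.93% of all genes, and their median log2 fold change was 0.44 beside -0.0034 for all genes. Hpgds encodes the hematopoietic prostaglandin D synthase, which mast cells and some macrophages use. It stood at 14.6 ± 8.99 CPM (SD, n = 4) in the batch 1 controls, 87.7 ± 25 (SD, n = 5) in WD and 5.28 ± 3.50 (SD, n = 5) in the batch 2 controls. Every WD library lay above every control, from 47.9 to 117 CPM against at most 27.1. The share of all genes that did so against both batches was not computed. Its log2 fold change was 4.04 (SE 0.63) against the batch 2 controls, with an FDR of 0.00084 by edgeR, and 2.58 (SE 0.48) against the batch 1 controls, with an FDR of 0.31. Alox5ap, the partner protein of 5-lipoxygenase in leukotriene synthesis, rose by 1.06 against the batch 2 controls (FDR 0.017 by edgeR). Hpgds was called in every comparison with the batch 2 controls that left out 1 library, and Alox5ap was not called without WD replicate 1 or control replicate 7. Against the batch 1 controls Hpgds was called without control replicate 4 (FDR 0.011 by edgeR), the library with the fewest genes, and by DESeq2 with all of them. Those fits called 48 of 12901 and 114 of 11940 genes. The r of Hpgds over the 14 libraries was 0.89 with the macrophage markers and 0.17 with the mast cell proteases.

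The remaining lists held fewer calls, again beside 3.93% of all genes called higher. For granule and amine handling, 1 of 7 tested genes was called higher in WD than in the batch 2 controls, the lysosomal hexosaminidase gene Hexa (log2 fold change 1.27, FDR 0.00059 by edgeR), which mast cell granules and all lysosomes hold. The list's median was 0.31. For surface receptors 1 of 5 was called, the complement receptor gene C5ar1 (2.26, FDR 0.0051 by edgeR), and the median was 0.68. None of 7 transcription factor genes was called, with a median of -0.04. Of further granule protease genes and of mast cell cytokine genes, 1 each was tested and 0 called. In the comparison of WD with all batch 1 controls, and in that of the control groups, edgeR called no gene at all, and so none on the 8 lists. Without control replicates 1 and 4, 1 gene of granule and amine handling (Hexa) was called against the batch 1 controls, beside 108 of all 13576 genes.

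Other genes that mark or direct mast cells were sparse or were not called. Gata2, a transcription factor gene that mast cells require, had between 0 and 37 counts per library, and its log2 fold change in WD was -0.79 (SE 2.09) against the batch 1 controls and -0.82 (SE 1.58) against the batch 2 controls. Mitf, which encodes the factor that drives Kit and granule genes in mast cells but is active in other cells too, stood at 38.9 ± 33.2 CPM (SD, n = 4) in the batch 1 controls. It stood at 42.6 ± 10.5 (SD, n = 5) in WD and 41.7 ± 16.7 (SD, n = 5) in the batch 2 controls, and its log2 fold changes in WD were 0.13 (SE 0.53) and 0.02 (SE 0.31). Mrgprb2, the receptor for basic secretagogues, had no count in any library. Il4, Il5, Il6, Il13 and Csf2 had none either, so 5 of the 8 cytokine genes were below the limit of 3 counts throughout.

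**Figure D5:**
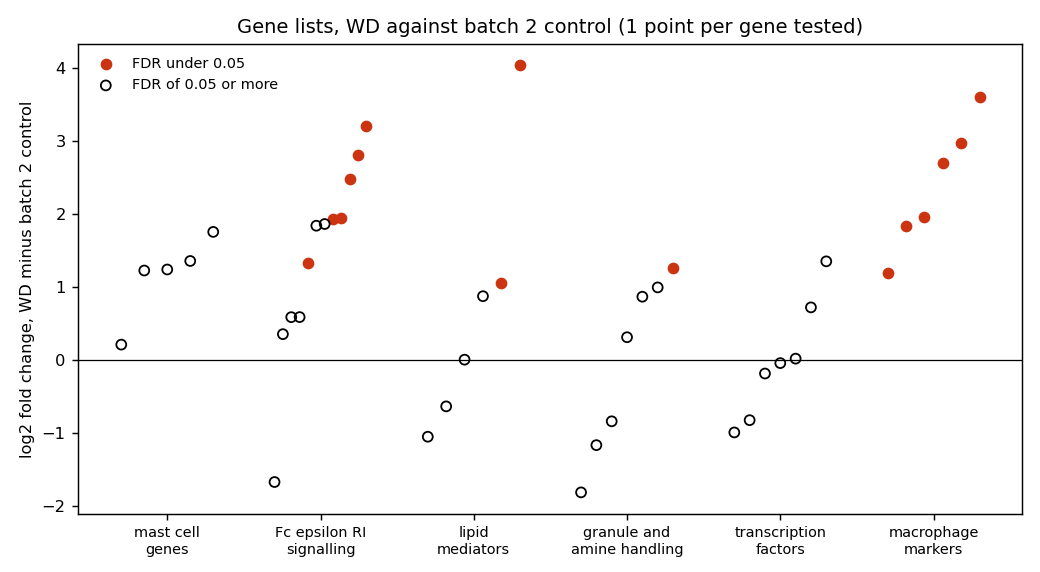
Log2 fold changes of WD against the batch 2 controls (vertical axis) for each tested gene of the mast cell genes, 4 pathway lists and the macrophage markers, filled where the edgeR FDR was under 0.05. The macrophage markers were called in 6 of 6 cases, the Fc epsilon RI signalling genes in 6 of 12 and the mast cell genes in 0 of 5. Over all 12070 genes tested 6.4% were called.

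Macrophage markers were called in the same comparison as genes of the signalling list. Correlation with the summed macrophage markers was computed for Fcer1g alone of that list. All 6 (Adgre1, Cd68, Itgax, Csf1r, Mrc1 and Lyz2) were called higher in WD than in the batch 2 controls by edgeR, beside 3.93% of all genes. Their summed level ran from 1103 to 1665 CPM in WD and from 186 to 479 in the batch 2 controls. In the batch 1 controls it ran from 129 to 1165 CPM. Against WD 0 of 6 were called, as were 0 of all 12157 genes tested. Without control replicates 1 and 4, 3 of 6 were called, beside 108 of all 13576 genes. No defining macrophage marker was at 0 in all libraries. Their part in the differences of Fcer1g, Lat2, Hpgds and the other genes of the lists was not tested. The mast cell genes followed the macrophage sum less closely than Fcer1g (r of 0.93), with r between -0.47 for Kit and 0.41 for Cpa3. With Mcpt8 and Prss34 at 0, the basophil list rested on Cd200r3 and Il3ra. Its summed level reached 26.3 CPM in WD, 6.59 in the batch 1 controls and 4.48 in the batch 2 controls. The medians were 5.65, 2.37 and 1.62 CPM in that order. The 26.3 CPM was 1 library, WD replicate 2, with 245 counts, all of Il3ra. Cd200r3 was counted in 2 of the 14 libraries.

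The genes whose pattern over the 14 libraries was most like that of the mast cell genes were found by Pearson's r of log2(CPM + 1) with the mean z-score of the 6 mast cell genes counted in at least 7 libraries, among 13242 genes with a mean of at least 1 CPM. The 10 highest were Ltbp1 (0.85), Lin54 (0.84), Cd109 (0.83), Psmb8 (0.83), Mmp2 (0.83), Prickle2 (0.81), Fam107a (0.81), Vps18 (0.81), Zfp532 (0.80) and Bst2 (0.80). Ltbp1 encodes a matrix protein that holds latent TGF-beta, Mmp2 a gelatinase of stromal cells, and Psmb8 a subunit of the immunoproteasome. Mmp2 had 572 counts in WD replicate 1 and 7 in control replicate 4, the libraries at the ends of the protease sum. The 10 genes had between 0 and 156 counts in control replicate 4, so the likeness is over libraries that also differ in how many genes were detected. It is a description with no test.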

How the data were processed

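Epididymal fat of 14 mice was profiled by single-end QuantSeq 3′-mRNA sequencing. The authors mapped reads by Bowtie2 and obtained the deposited raw counts per gene from bedtools coverage, from both unique and multiple alignments. The submitters' processing notes name mm10, and tool versions are not given in the sources used here. The authors also deposited log2 values, made in edgeR from TMM-normalized CPM with 1 added. These were recomputed from the counts and differed by at most 0.0507. The log2 values are shown in the plot of the 8 genes by library, and all tests used the counts.

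Groups came from the sample labels. WD was compared with the batch 1 controls, WD with the batch 2 controls, and the control groups with each other, each on its own libraries with edgeR's quasi-likelihood test, TMM factors, the filterByExpr rule for low counts and a Benjamini-Hochberg FDR over all genes tested (edgeR 4.0.16, R 4.3.3). Levels are CPM with TMM factors over 14 libraries. Promoters were taken from RefSeq and searched as text on both strands, and gene positions from the deposited table. The pipeline was tested on simulated data. Fold changes of genes with many zeros depend on edgeR's prior count. The labels do not say whether libraries of a group came from animals kept together, so p-values measure the spread between these libraries.

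The mast cell genes and all lists were chosen with earlier results of these data known. The text names the 8 mast cell genes, every gene of the 8 lists with an FDR under 0.05 in a comparison (at most 6 a list), Tpsab1, Mcpt8, Prss34, Kitl, Fcer1g, Gata2, Mitf and Mrgprb2 whatever their values, and the 10 genes most like the mast cell genes. Macrophage markers, cytokine genes at 0 and gene counts of single libraries are named beside results they touch. Alternatives were other scalings and filters, DESeq2 1.42.0, limma-voom (limma 3.58.1), other sets of libraries, batch and replicate terms, and each library left out in turn. Applying them to the calls on the lists was decided after seeing the data. Other values and plots were made with Python 3.11.15, pandas 2.3.3 and matplotlib 3.10.9.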

Additional observations from a re-analysis of the deposited data

Results flagged for a closer look

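In 5 of 24 combinations of a mast cell gene and a group, 1 library lay far from the others of its group on the deposited log2 scale, by Dixon's 95% criterion. Chance gives about 1 in 20 such groups, and 3 of the 24 had no count in any library. Cpa3 in control replicate 9 of batch 2 was at 2.04, below the 3.01 to 3.33 of the other batch 2 controls. Kit in WD replicate 1 was at 2.67, above the 0 to 0.42 of the other WD libraries. Fcer1a was at 1.94 in WD replicate 1, where the others were at 0 to 0.39, and at 1.97 in control replicate 8, where the others were at 0. Ms4a2 was at 2.09 in WD replicate 5 and at 0 in the other WD libraries. Among groups otherwise at 0, any library with counts meets this criterion.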

How the results depend on the processing

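Of 52 counts of called mast cell genes under an alternative, 51 were 0, as in the report. In many alternatives with the batch 1 controls no gene of the whole table was called, so a count of 0 was fixed there. Between WD and the batch 2 controls the alternatives called from 140 of 13159 to 1154 of 11122 genes. The exception was 1 gene, Tpsb2, called between WD and the batch 2 controls without WD replicate 4. Leaving out each library in turn gave 0 to 1 genes there and 0 in the other comparisons. Of 273 fold changes of single genes under an alternative, 266 kept their direction. Hdc reversed to 0.92 in limma-voom between WD and the batch 1 controls. Kit reversed between the control groups, to 0.57 in limma-voom and 0.96 without control replicates 1 and 4. Under limma-voom the median of all genes was 0.42 against the batch 1 controls, -0.11 against the batch 2 controls and 0.51 between the control groups. With single libraries left out, Kit between the control groups ran from -1.04 to 1.54, and Mcpt4 between WD and the batch 2 controls from -0.11 to 0.89. The causes were not tested.

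A filter of 1 CPM in every library left no mast cell gene in the comparisons with the batch 1 controls. With the replicate number as a block in batch 1, 0 genes were called. Same-numbered libraries correlated at -0.02 to 0.08 in their deviations, and 2 of 4 controls correlated best with their own number, so the numbers were not taken to pair animals. The batch 2 controls share no replicate number with the batch 1 controls. Kit, Fcer1a and Ms4a2 were at 0 in at least 7 of 14 libraries, below the limit of 3 counts.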
